A study of Brassica rapa subsp. pekinensis with 8 samples.

Results

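Line 4004, an early-bolting inbred of Chinese cabbage (Brassica rapa ssp. pekinensis), was compared with the late-bolting inbred line 50 directly after vernalization, gene by gene, in the 4 day 35 libraries of the 8 in the series. The day 35 groups were 1 library of line 4004, numbered 3, and 3 libraries of line 50, numbered 1 to 3. The day 0 groups, again 1 and 3 libraries, were plants of the same lines from the warm growth room with no cold treatment, and their values are given where they show whether a difference was already there. At day 35 the plants had spent 35 days in a cold room with a shorter light period, so cold, day length and plant age were combined in both lines. Both lines are inbreds with no transgene, each sample pooled several plants at the vegetative stage, and the tissue is leaf according to the labels and shoot according to the methods. Line 4004 libraries with the numbers 1 and 2 are not analysed here, so no value of line 4004 has a replicate and its spread was assumed to be that of line 50.

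Vernalization is the need of many crucifers for a long cold period before they flower. In Arabidopsis the cold silences the repressor gene FLC, which frees the floral integrators FT and SOC1 to act. FT and its near twin TSF encode the mobile signal made in leaf veins that travels to the shoot tip, where SOC1, SPL factors and the identity genes LFY, AP1 and FUL carry the switch on. Leaves of the same plants also take up and reduce nitrate, make glucosinolates, the sulfur-rich defence compounds of crucifers, and hold the photosynthetic apparatus, and these processes are described alongside. Brassica rapa often has more than 1 gene for an Arabidopsis locus, and such genes are called copies here.

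The line 4004 library held 25.3 M counts, and the line 50 libraries held 27.1 M (replicate 1), 23.9 M (replicate 2) and 18.4 M (replicate 3). Replicates 1 and 2 of line 50 were close to each other and replicate 3 stood apart. Among 7953 genes whose normalized read counts averaged 500 or more, 2848 in replicate 3 lay more than 2-fold from the mean of the other two, whereas 19 differed more than 2-fold between replicates 1 and 2. The counts of replicates 1 and 2 still differed beyond sampling noise (chi-square of 6.58 per degree of freedom over genes, against 176 and 151 for the pairs with replicate 3), so all 3 were kept as samples. The 10 most abundant genes held 15% of the counts in replicate 3, 6.65% and 7.84% in replicates 1 and 2, and 9.59% in line 4004. Levels below are normalized read counts, that is raw counts divided by 1 factor per library, and a value of 1 stands for no read or 1 read. In replicate 3 of line 50 at day 35 the lowest value is 2, which stands for none. Where a gene is said to have no reads, its raw counts show none.

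After vernalization 110 genes were higher and 29 lower in line 4004 than in line 50, together 139 of the 31191 genes tested (0.446%; 0.353% higher and 0.093% lower). Calls required an adjusted p under 0.05 in edgeR's quasi-likelihood test together with a change of at least 2-fold. The called genes were mostly close to silent in one line. The 110 genes had a median level of 109 in line 4004 and of 2 in each library of line 50, and 30 of them had no reads in line 50. The 29 had a median of 3 in line 4004 against 244, 232 and 233 in line 50, and 6 had no reads in line 4004. Each of the 139 lay at least 2-fold beyond every line 50 library, which held for 989 of all genes tested above (3.17%) and 1101 below (3.53%).

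**Figure D1:**
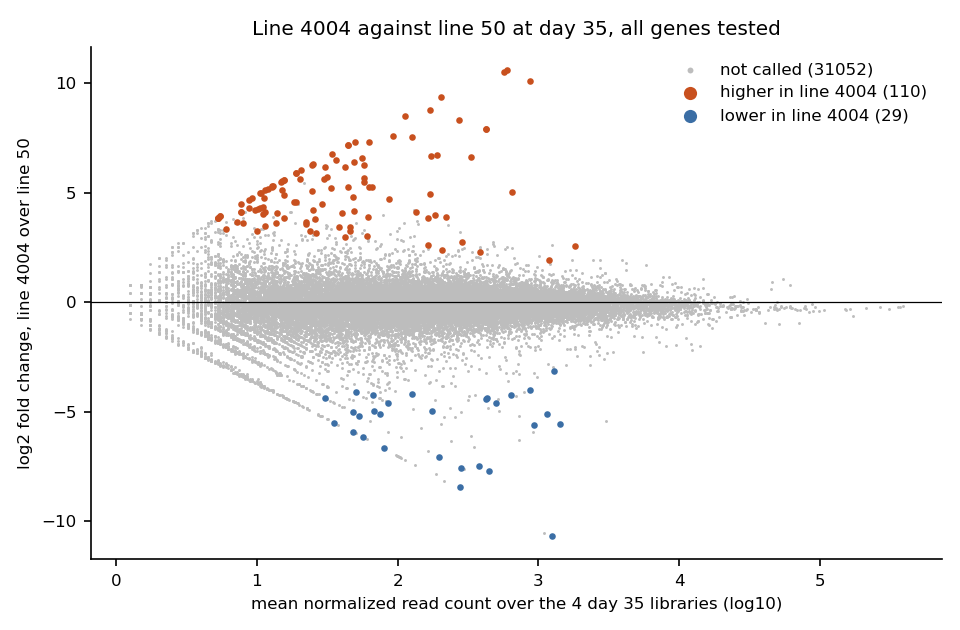
Log2 fold change of line 4004 against line 50 at day 35 (vertical axis) for each of the 31191 genes tested against its mean normalized read count over the 4 libraries (horizontal axis, log scale). The 110 genes called higher and the 29 called lower are coloured, the called changes run from 1.93 to 10.66 in absolute value, and 13 of them have a mean of at least 500.

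The number of calls rested on the line 50 libraries that entered the fit and on the assumed addition of 1 to every count. With 1 subtracted from each count, 47 of 30927 genes tested were called, 33 higher and 14 lower, all of them among the 139. With the replicate number as a block, 297 genes were called (0.952%; 154 or 0.494% higher and 143 or 0.458% lower), among them 79 of the 110 and 29 of the 29, and DESeq2 called 433 (1.39%; 189 or 0.606% higher and 244 or 0.782% lower), among them 129 of the 139. Without replicate 1 or without replicate 2 of line 50 at day 35 only 10 genes were called, 9 of them in both cases: both BrNIP2;1 genes, Bra000597, Bra005173, Bra024653, Bra034270, Bra007200 and Bra022234, which were higher, and Bra005702, which was lower. Without replicate 3 the count was the same as in the full fit, 97 higher and 42 lower, with 112 genes shared. The day 0 libraries of line 50 enter the day 35 test through the estimate of spread, and without replicate 1 or 2 of them 34 and 28 genes were called.

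Most called differences were also present before the cold. Of the 139 genes, 108 were called in the same direction at day 0, 85 higher and 23 lower, and 137 had the same sign. Day 0 calls were 1.2% of genes tested for higher and 0.292% for lower. These 108 were 77.7% of the day 35 calls and 23.2% of the 466 called at day 0 (1.49% of genes tested). The test of the difference between the line differences at day 35 and day 0 called no gene (956 at an unadjusted p under 0.05), the replicate block called none either (2969), and DESeq2 called 69 (0.221%), none of them among the 139. No gene below is therefore shown by edgeR to differ between the lines at one day and not at the other.

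**Figure D2:**
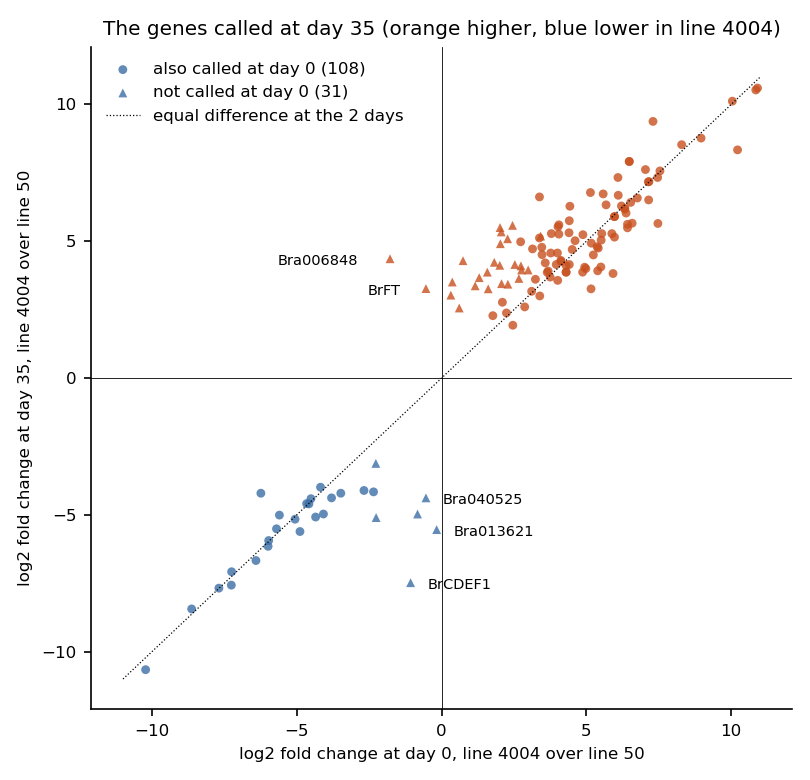
Log2 fold change of line 4004 against line 50 at day 0 (horizontal axis) and at day 35 (vertical axis) for the 139 genes called at day 35. Most points lie near the diagonal, and BrCDEF1 (-1.07 and -7.48), Bra013621 (-0.17 and -5.54) and Bra006848 (-1.78 and 4.36) lie far from it.

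Among flowering genes, transcripts of BrFT and BrTSF were called higher in line 4004. BrFT (Bra022475), the florigen gene, had 32 normalized reads in line 4004 (95% Poisson interval 22.3 to 45.0, counting error only) and 2, 3 and 3 in line 50. BrTSF (Bra004117), its near twin, had 38 (27.2 to 51.8) against 2, 3 and 3. At day 0 both stood at 1 in line 4004 and at 2, 1 and 2 in line 50, so reads of either gene were near absent in both lines before the cold. The day 35 log2 fold change was 3.27 ± 0.46 (SE, adjusted p = 0.046) for BrFT and 3.51 ± 0.45 (adjusted p = 0.034) for BrTSF. Both calls were lost with the replicate block (adjusted p = 0.075 and 0.068) and in DESeq2 (0.14 and 0.065). Each was lost in 13 of the 16 alternative fits. The interaction values were 3.81 for BrFT and 3.14 for BrTSF, neither of which passed the adjusted test.

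BrAGL42 (Bra029281), a MADS-box gene related to SOC1 that promotes flowering in Arabidopsis, was the third called gene of the integrator list. Its level was 73 in line 4004 against 5, 7 and 4 in line 50 (3.57 ± 0.42, adjusted p = 0.023), and at day 0 it was already 38 against 1, 2 and 2. The 3 calls were 8.82% of the 34 list genes tested, beside 0.446% over all genes. The list had a median log2 fold change of 1.02, with 30 of 34 genes positive, against -0.07 over all genes, and 16 of its genes (47.1%) lay at least 2-fold above every line 50 library. That count was 16, 16 and 17 when replicate 1, 2 or 3 of line 50 was left out, beside 1243, 1159 and 2515 over all genes tested. At day 0 it was 11 (32.4%, beside 7.46% of all genes), and the list median was 0.5. With the replicate block the day 35 median was 1.2, beside 0.0 over all genes.

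The remaining genes of that list did not pass the test and are given as values. BrSEP3 Bra030032, a floral organ identity gene, had 186 normalized reads against 44, 36 and 16 (2.43 ± 0.46, adjusted p = 0.13), and the copies Bra032814 and Bra010955 had 136 against 37, 30 and 12 and 100 against 33, 28 and 9. SPL3 and SPL5 encode small SPL factors, targets of miR156 that act beside FT at the shoot tip. BrSPL5 Bra027265 had 34 against 6, 6 and 5 (2.49 ± 0.49, adjusted p = 0.15), Bra021094 25 against 5, 4 and 4, and BrSPL3 Bra022954 33 against 9, 9 and 10. Line 4004 was above every line 50 library for all of these. BrFD Bra010504, the partner of FT in the meristem, had 35 against 16, 12 and 14.

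The BrSOC1 genes depended on which line 50 library was read. BrSOC1 Bra004928 had 484 in line 4004 against 337, 361 and 53 in line 50 (0.9 ± 0.8, adjusted p = 1.0), Bra039324 461 against 282, 306 and 47, and Bra000393 371 against 259, 277 and 45. Line 4004 was highest for each, but the gap to replicates 1 and 2 was small beside the gap between those and replicate 3. With the replicate block, which sets the line 4004 library beside replicate 3, the values were 2.74 for Bra004928, 2.85 for Bra039324 and 2.66 for Bra000393, and none was called (adjusted p = 0.074, 0.071 and 0.064). BrLFY Bra029305, the floral identity gene, was at 2 in line 4004 and at 2, 2 and 15 in line 50, so it stood clear of the lowest values in replicate 3 alone.

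**Figure D3:**
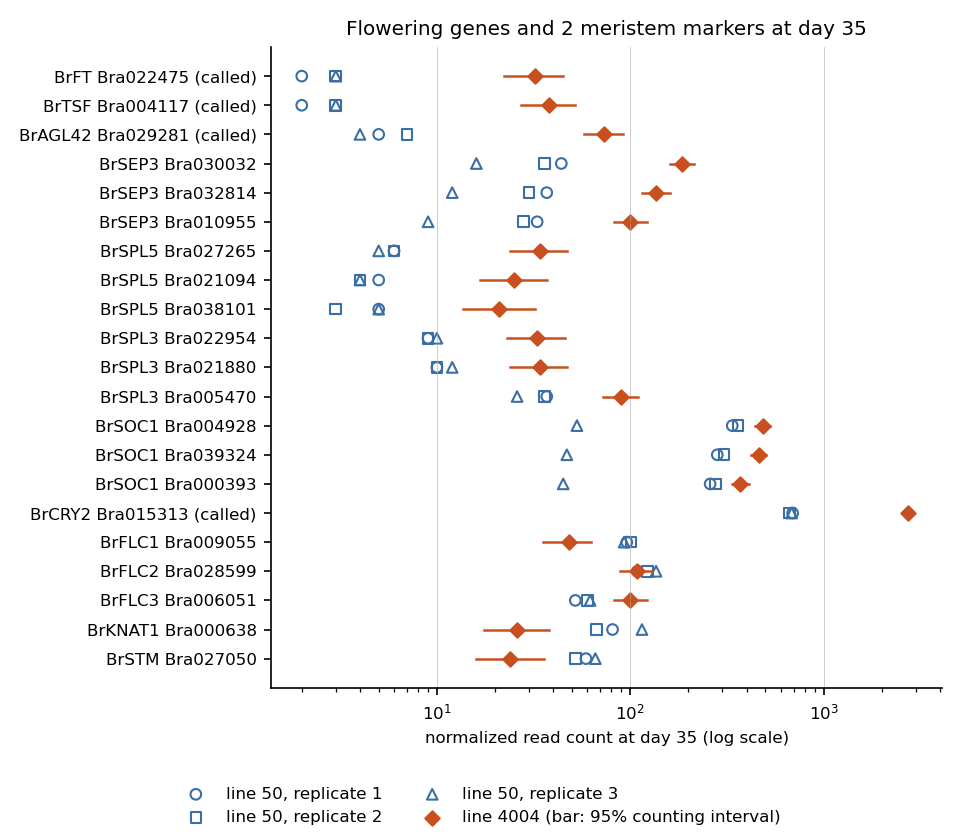
Normalized read counts (log axis) of flowering genes and 2 meristem markers in the line 4004 library (diamond, with its 95% counting interval) and the 3 line 50 libraries (open symbols) at day 35. BrFT, BrTSF and BrAGL42 are at 32, 38 and 73 in line 4004 and between 2 and 7 in line 50, while the BrSOC1 genes of line 4004 lie near replicates 1 and 2 with replicate 3 far below.

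None of the 34 floral repressors tested was called (2 at an unadjusted p under 0.05, 0 by DESeq2) and their median was 0.09 (-0.12 with the block). The FLC copies went different ways in their values. BrFLC1 Bra009055 had 48 against 96, 101 and 93 (-1.1, adjusted p = 0.68), BrFLC2 Bra028599 had 108 against 109, 123 and 136, and BrFLC3 Bra006051 had 100 against 52, 60 and 62. Line 4004 lay below every line 50 library for the first 2 and above for the third, with none passing the test. No gene of the vernalization and Polycomb machinery was called among 42 tested (0 at an unadjusted p under 0.05, 0 by DESeq2; median 0.03, or 0.37 with the block). BrVIN3 Bra006824, a gene that long cold induces in Arabidopsis and that recruits the silencing complex to FLC, had 292 against 267, 282 and 165, and BrVIN3A Bra020445 had 881 against 602, 603 and 448. BrBMI1B Bra015525, a Polycomb ring finger gene, had 23 against 8, 12 and 8 (1.18, adjusted p = 0.82), and BrFIE Bra035751, a core Polycomb subunit, 42 against 25, 23 and 16.

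In the photoperiod list 1 of 37 genes was called (2.7%, beside 0.446% of all genes), with a median of -0.26. BrCRY2 (Bra015313), a blue-light receptor that promotes flowering in long days, had 2747 normalized reads against 692, 664 and 684 in line 50. Its level was 4.04 times the line 50 mean (1.93 ± 0.27, adjusted p = 0.045), the line 50 libraries lay close together, and it was 2591 against 438, 453 and 463 at day 0. The other copy, Bra030568, had 2651 against 1992, 2029 and 1464 (0.47), so the copies of this receptor differed in how far the lines lay apart. Of 41 clock genes none was called (3 at an unadjusted p under 0.05, 1 by DESeq2; median 0.15, or -0.19 with the block). BrCIR1 Bra039503, a MYB-like gene of the clock, had 85 against 959, 959 and 365 (-3.22 ± 0.82, adjusted p = 0.31), and with the replicate block it was called lower (-2.26, adjusted p = 0.04). BrPRR5 Bra036517, an evening-phase clock repressor, had 2112 against 1188, 1111 and 806 (0.96). Over the 43 flowering genes that the study lists, chosen by it on these samples and therefore no independent evidence, 1 was called, BrCRY2, and the median was -0.03, with changes from -3.22 for BrCIR1 to 1.93.

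Markers of cell types that the shoots could hold are given beside these values, and their part in the flowering results was not tested. In such bulk samples fewer cells of a type and less RNA per cell cannot be told apart. All 10 shoot meristem markers tested had negative values, with a median of -1.29. At least 2-fold below every line 50 library lay 6 (60.0%), beside 3.53% of all genes tested. The count was also 6 when any 1 line 50 library was left out. KNAT1 Bra000638, a homeobox gene of the stem apex, had 26 against 81, 67 and 115, STM Bra027050, which maintains the meristem, 24 against 59, 52 and 66, and KNAT6 Bra016348 18 against 54, 48 and 39. None was called (6 at an unadjusted p under 0.05, 0 by DESeq2). Over all genes tested, 1987 of 31191 had an unadjusted p under 0.05. The summed level of the 16 marker genes was 652 in line 4004 and 763, 858 and 1774 in line 50. WUS, CLV3 and CUC3 were at or near no reads in all 4 libraries and were not tested. At day 0 the 10 markers tested had a median of 0.37. None lay at least 2-fold below every line 50 library then, beside 5.13% of all genes.

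The other marker lists held no call either. For dividing cells all 12 values were negative (median -0.46), with BrCYCB1;1 Bra011769, a mitotic cyclin, at 71 against 248, 211 and 194 (-1.69, adjusted p = 0.22) and list sums of 2055 against 2321, 2307 and 3113. For xylem and stem fibre 13 of 14 were negative (median -0.79), with sums of 1328 against 2869, 2875 and 787, so replicate 3 was lowest. Floral organ markers summed to 94 against 46, 75 and 73 (6 tested, median 0.53), and the root markers to 7 against 10, 9 and 18 with none tested. Light-harvesting and Rubisco genes, which mark the green tissue named in the labels, were abundant in every library, with 45 of 49 values negative (median -0.3), no call (0 at an unadjusted p under 0.05, 0 by DESeq2) and sums of 2783051 against 1902435, 2158444 and 5093357. Reference genes had a median of 0.04 over 9 tested, and of -0.4 with the block. BrTIP41 Bra011516 was at 253 against 234, 205 and 137, while BrUBQ10 Bra029570 was at 21862 against 7542, 7759 and 22455.

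Of the pathway lists, nitrate genes had the most low values in line 4004, although no single one passed the test. Of 59 genes of nitrate uptake, assimilation and response tested, 47 had negative values, the median was -1.12, and 23 (39.0%) lay at least 2-fold below every line 50 library, beside 3.53% of all genes. That count was 23, 25 and 33 without replicate 1, 2 or 3, beside 1202, 1240 and 3073 over all genes tested. At an unadjusted p under 0.05 there were 27, beside 1987 of the 31191 genes tested. DESeq2 called 16 (15 lower and 1 higher), beside 1.39% of all genes. The fit with the replicate block called 6, all lower, beside 0.458% called lower over all genes, and its list median was -0.89. The summed level of the list was 16937 in line 4004 and 45053, 39876 and 38204 in line 50. Much of this was already there at day 0, when the list median was -0.97 and 6 genes were called lower. Over all genes tested 0.292% were called lower at day 0. At that day 25 list genes (42.4%) lay at least 2-fold below every line 50 library, beside 5.13% of all genes.

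Nitrate reductase makes nitrite from nitrate, the first step of its assimilation. BrNIA1 Bra008333 had 571 normalized reads against 3233, 2880 and 2642 in line 50, Bra003670 658 against 4156, 4055 and 2953, and Bra015656 1540 against 7154, 6281 and 7311. Each stood far below all 3 line 50 libraries, which lay close to one another. The log2 fold changes were -2.43 ± 0.37 for Bra008333 (adjusted p = 0.06), -2.57 ± 0.40 for Bra003670 (0.062) and -2.25 ± 0.42 for Bra015656 (0.12). With the replicate block all 3 were called lower (adjusted p = 0.031, 0.04 and 0.033). BrNIR1, the nitrite reductase that takes the next step, had 856 against 3025, 2491 and 4449 for Bra015227 and 947 against 2404, 2063 and 4676 for Bra039844, and neither was called in either edgeR fit. These are the 5 reductase genes that the study lists, picked by it on these samples, and their median was -2.25 at day 35 and -3.78 at day 0.

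Transporter and regulator genes of nitrate were also low by value. The 5 NRT2.1 copies, which encode the high-affinity transporter, had 1 to 4 normalized reads in line 4004. Bra030713 had 1 against 43, 28 and 36 and Bra018656 3 against 66, 41 and 64, with no overlap between the lines. LBD37, LBD38 and LBD39 encode nitrate-induced repressors of nitrogen and anthocyanin genes in Arabidopsis. BrLBD39 Bra011772 had 12 against 358, 197 and 373 (-4.8 ± 1.22, adjusted p = 0.31) and BrLBD37 Bra031833 had 77 against 349, 265 and 349. BrBT2 Bra018065, a BTB scaffold gene induced by nitrate, had 26 against 513, 542 and 340. BrHHO2 Bra038360, a GARP transcription factor of the nitrogen response, had 57 against 336, 326 and 489, a difference that was called with the block (-3.08, adjusted p = 0.033) and not without it (-2.83 ± 0.48, adjusted p = 0.088). BrHHO3 Bra012471 (4 against 45, 68 and 55) behaved alike, with an adjusted p of 0.047 with the block and 0.087 without. The vacuolar exchanger BrCLCA Bra028478 had 61 against 667, 685 and 300.

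Some genes of the list went against its median. BrNRT2.5 Bra016747, a transporter that Arabidopsis makes under long nitrogen lack, had 451 against 41, 49 and 16 (3.57 ± 0.6, adjusted p = 0.087; 0.00012 in DESeq2). BrNRT1.5 Bra010165, which loads nitrate into the xylem, had 407 against 196, 175 and 62, and both genes lay above every line 50 library by at least 2-fold. The dual-affinity transporter and sensor BrNRT1.1 Bra026991 had 950 against 780, 939 and 717, a near even level. BrNLP7 Bra019251, the nitrate-sensing transcription factor, had 468 against 855, 889 and 861. For ammonium and amino acid nitrogen no gene of 24 was called (1 at an unadjusted p under 0.05, 0 by DESeq2; median 0.03, or -0.27 with the block). BrGLN1;4 Bra023573, a cytosolic glutamine synthetase, had 9127 against 1674, 1899 and 3082 (1.94, adjusted p = 0.89), and BrGLT1 Bra029067, an NADH-dependent glutamate synthase, had 2287 against 4346, 4321 and 4449.

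**Figure D4:**
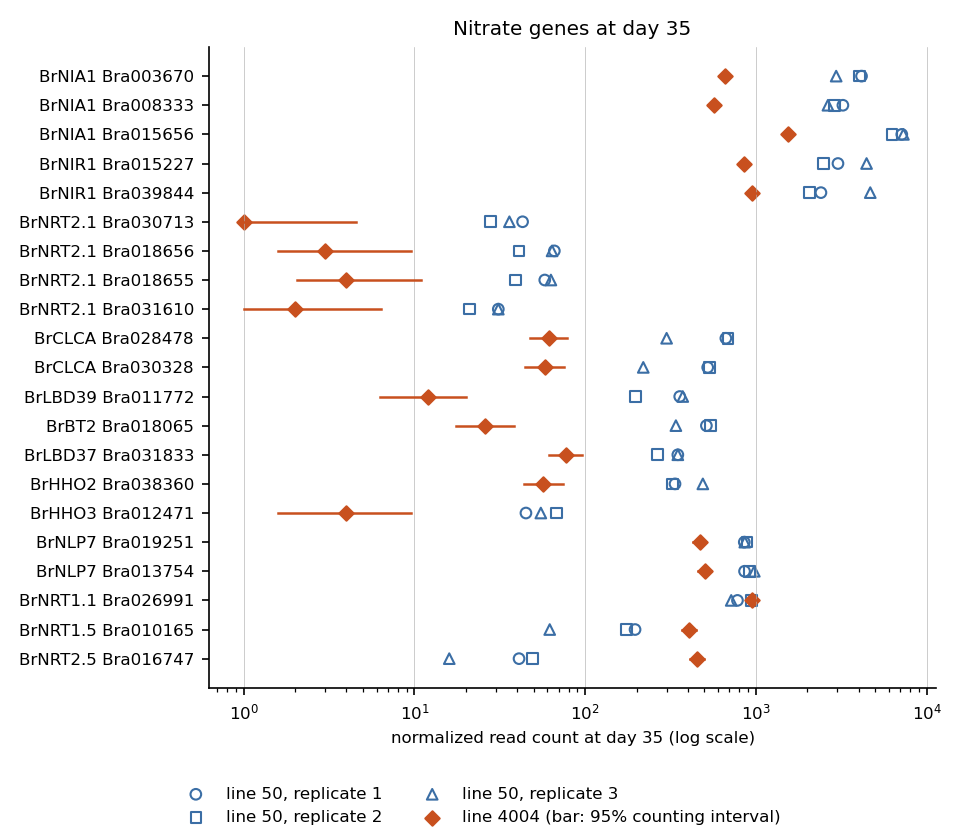
Normalized read counts (log axis) of nitrate transport, reduction and response genes in the line 4004 library (diamond, with its 95% counting interval) and the 3 line 50 libraries (open symbols) at day 35. The 3 BrNIA1 genes lie at 571 to 1540 in line 4004 and at 2642 to 7311 in line 50, and BrNRT2.5 goes the other way with 451 against 16 to 49.

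Sulfur genes had the second lowest median of the pathway lists, -1.04, with 22 of 23 values negative, beside 17233 of 31191 over all genes tested. At least 2-fold below every line 50 library lay 5 (21.7%), beside 3.53% of all genes. The list median was -1.44 with the block, and at day 0 it was 0.41. None was called (6 at an unadjusted p under 0.05, 0 by DESeq2). Over all genes tested, 1987 of 31191 had an unadjusted p under 0.05. BrAPR2 Bra034466, the main adenosine phosphosulfate reductase, had 4702 against 10864, 11206 and 18198 (-1.61 ± 0.7, adjusted p = 0.8). BrSDI1 Bra037456, a gene induced by sulfur lack that holds back glucosinolate synthesis in Arabidopsis, had 90 against 256, 254 and 278 (-1.64 ± 0.46, adjusted p = 0.4). BrLSU1 Bra017974, a small sulfur-lack protein, was the exception, with 221 against 47, 59 and 123. BrLSU2 Bra020466 had 183 against 185, 145 and 591, and the block called it lower (adjusted p = 0.048), while its log2 fold change was -0.87 without the block and 0.12 without replicate 3.

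One copy of the aliphatic glucosinolate regulator BrMYB28 was higher. This copy (Bra029311), the main activator of the pathway, had 4945 normalized reads against 658, 805 and 929 (2.56 ± 0.32, adjusted p = 0.03), and at day 0 it had 1968 against 1193, 1333 and 1218 (0.61, not called). The other copies, Bra035929 and Bra012961, had 335 against 281, 318 and 229 and 489 against 436, 499 and 269, within or near the line 50 range. In the list 35 of 47 values were positive, with a median of 0.53, but 0.09 with the block, and 1 gene was called (2.13%). At least 2-fold above every line 50 library lay 6 (12.8%), against 17 (36.2%) at day 0, beside 3.17% and 7.46% of all genes. BrMYB29 Bra005949, a second activator, had 301 against 37, 24 and 58 (2.84 ± 0.92, adjusted p = 0.52). BrBCAT4 Bra022448, which starts methionine chain elongation, had 859 against 178, 210 and 104, and BrCYP79F1 Bra026058, which starts core synthesis, 538 against 232, 247 and 220. List sums were 26865 in line 4004 and 14932, 16122 and 15883 in line 50.

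Indole glucosinolate and breakdown genes had no call among 64 (4 at an unadjusted p under 0.05, 1 by DESeq2; median -0.08). With the block 2 were called lower: BrNSP1 Bra021175, a nitrile specifier, with 1 against 30, 21 and 65 (adjusted p = 0.046 with the block, 0.25 without), and BrMYB34 Bra029350, an activator of indole glucosinolate synthesis, with 38 against 129, 141 and 185 (0.049 and 0.28). Antioxidant enzymes had no edgeR call among 19 (2 at an unadjusted p under 0.05; median 0.28, or -0.22 with the block), and DESeq2 called both BrCAT1 copies higher. BrCAT1 Bra012239, a catalase gene, had 6245 against 1726, 1567 and 1385 (1.93 ± 0.4, adjusted p = 0.17), and Bra025833 had 2018 against 733, 673 and 494 (1.6 ± 0.35, adjusted p = 0.2). BrCAT3 Bra012238 had 93672 against 42327, 44659 and 40669 (1.06), so these 3 catalase genes had their highest value in line 4004. Outside that list, an ascorbate peroxidase gene, BrAPX3 (Bra013053), was called higher, with 2389 against 42, 57 and 106 (5.04 ± 0.66, adjusted p = 0.037) and 1806 against 19, 38 and 56 at day 0.

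The defence and hormone lists held 1 call, beside 0.446% called over all genes tested. In the salicylic acid list 1 of 51 genes was called (1.96%; median -0.06, or 0.36 with the block), BrSAG101 (Bra006274), a lipase-like partner of EDS1 in immunity, with 125 against 17, 16 and 10 (3.0 ± 0.43, adjusted p = 0.05 when rounded, and 0.057 with the block, where the call was lost). BrPR2 Bra015873, a glucanase gene of the salicylic acid response, had 1070 against 248, 344 and 77, whereas the FMO1 copy Bra016515, a systemic immunity gene, had 1 against 47, 16 and 2. No gene was called among 44 of jasmonate (median 0.08), 34 of ethylene (0.01), 48 of abscisic acid (0.16), 33 of gibberellin (-0.04), 33 of auxin (-0.09) or 31 of cytokinin (-0.54), with 0 to 4 per list at an unadjusted p under 0.05. With the block the median turned sign for jasmonate (-0.18), abscisic acid (-0.23) and cytokinin (0.32), so none of these 3 lists has a direction that holds in both fits. By DESeq2, 2 gibberellin genes and 1 auxin gene were called and none in the other 4. The 2 gibberellin genes were the GA20OX3 copies, which encode the oxidase that makes active gibberellin precursors. BrGA20OX3 Bra005927 had 25 against 124, 157 and 86 (-2.34, adjusted p = 0.26) and Bra028706 12 against 56, 68 and 36 (-2.27, adjusted p = 0.28). BrIAA29 Bra023958, an auxin response repressor, had 37 against 144, 186 and 110.

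Cold, nutrient and metabolic lists held no call. Cold response genes had a median of 0.1 over 36, with 1 at least 2-fold above every line 50 library at day 35 and 17 (47.2%) at day 0, beside 3.17% and 7.46% of all genes. That gene, BrCBF2 Bra022770, a cold-induced activator of the freezing response, had 932 against 203, 180 and 420. The median was 0.02 over 35 phosphate starvation genes and -0.16 over 32 iron genes. BrMGD3 Bra037199, a galactolipid synthase made under phosphate lack, had 200 against 54, 46 and 27 (2.16 ± 0.39, adjusted p = 0.11). BrIRT1 Bra013422, the root iron importer, had 1 against 13, 10 and 8, and BrFIT Bra000495, its regulator, 20 against 4, 2 and 3. Flavonoid and anthocyanin genes had a median of 0.59 over 40, with 4 at least 2-fold above every line 50 library, a count that was 18 without replicate 3. Over all genes tested the same count went from 989 to 2515. BrMYBL2 Bra016164, a repressor of anthocyanin synthesis, had 43 against 199, 151 and 161. Medians were -0.04 for 33 phenylpropanoid genes, 0.21 for 43 of starch and sugar, -0.09 for 28 of senescence and 0.29 for 8 of heat shock. With the block the median turned sign for cold response (-0.17), iron (0.36), flavonoids (-0.08), senescence (0.12) and heat shock (-0.26). In the heat shock list BrHSFA2 Bra000557, a heat stress factor, was at 14 against 6, 3 and 5. In these 8 lists 0 to 6 genes were at an unadjusted p under 0.05, and DESeq2 called 2 phosphate genes, 1 flavonoid gene and none in the other 6.

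**Figure D5:**
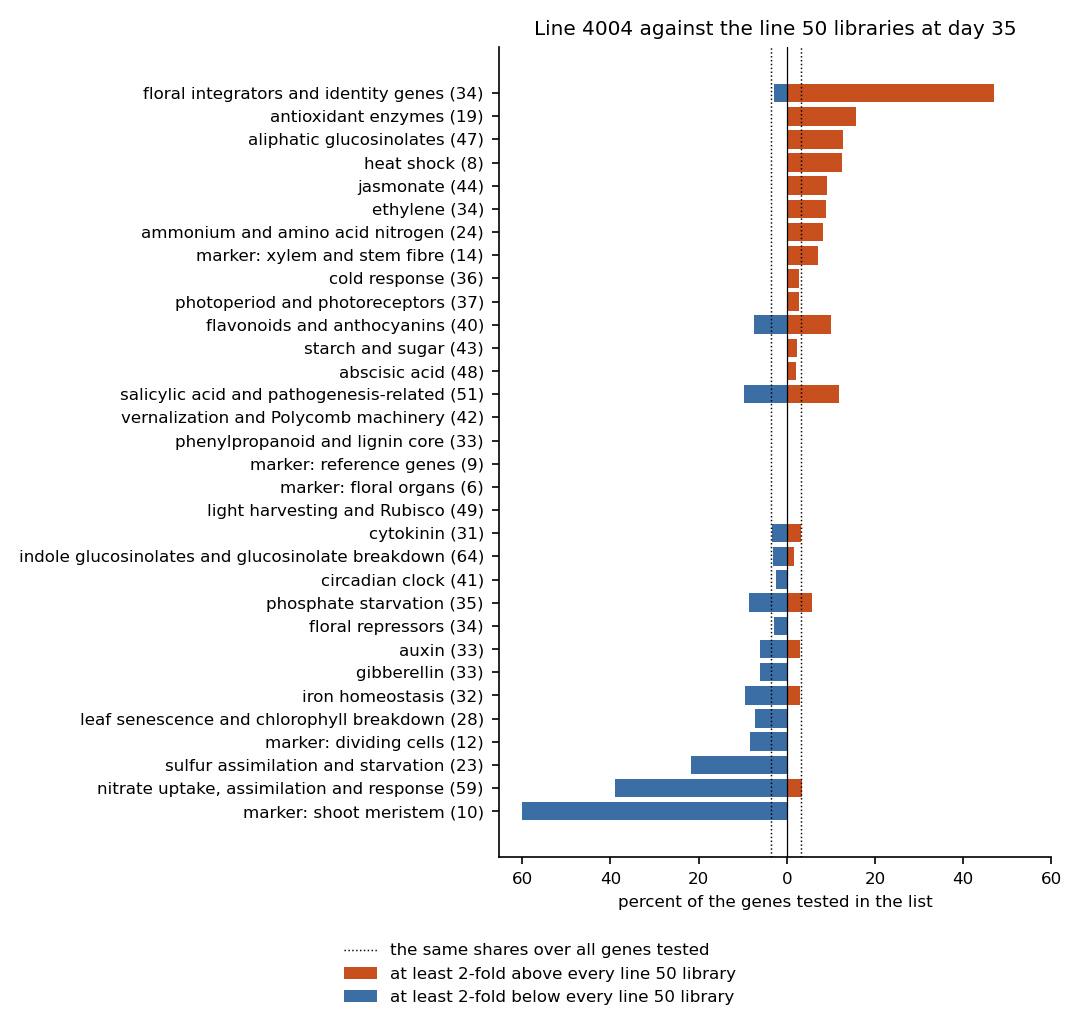
Percent of the genes tested in each list that lay at least 2-fold above (right) or below (left) every line 50 library at day 35, with the number tested in brackets and dotted lines for all genes tested. The floral integrators (47.1% above), the shoot meristem markers (60.0% below) and the nitrate list (39.0% below) stand out beside 3.17% above and 3.53% below over all genes.

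Several of the largest called differences were in genes with a described product. Both BrNIP2;1 genes encode an aquaporin-like channel, and had the 2 largest called positive changes. Bra005428 had 2402 normalized reads against 2, 1 and 2 (10.6 ± 0.39, adjusted p = 0.0004) and Bra005430 had 2289 against 2, 1 and 2 (10.53 ± 0.39, adjusted p = 0.0004). The line 50 reads are so few that the ratio of Bra005428, 7080, has a counting interval from 1270 to 280000. Aquaporin genes as a family had 2 of 48 called (4.17%) and 6 (12.5%) at least 2-fold above every line 50 library. Over all genes tested these shares were 0.446% and 3.17%. Among the 73 acid phosphatase and related genes 2 were called higher (2.74%, beside 0.353% of all genes). Bra010332 had 3499 against 2, 1 and 7 (10.12 ± 0.67, adjusted p = 0.0034) and Bra011091 had 502 against 2, 1 and 3 (7.57 ± 0.5, adjusted p = 0.0034).

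Other genes that were nearly silent in line 50 have no well-described product. Bra024653 had 1085 against 2, 3 and 3 (8.34, adjusted p = 0.0014), Bra016440 1284 against 7, 14 and 16 (6.62, adjusted p = 0.0045), and Bra034270, whose protein has a domain of unknown function, 676 against 2, 1 and 2 (8.77, adjusted p = 0.0011). Bra016440 was at 87 in line 4004 at day 0.

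Enzymes and regulators higher in line 4004 came from many families. The cyclophilin-like gene Bra007200, of a protein-folding isomerase family, had 807 and no reads in line 50, at least 237-fold higher. The glycosyltransferase genes Bra005227 and Bra005229, which add sugars to small molecules, had 746 against 6, 6 and 9 (6.73 ± 0.71, adjusted p = 0.017) and 669 against 6, 5 and 7. Their day 0 levels in line 4004 were 2052 and 2830. The NAC factor BrANAC027 (Bra025701) had 79 and no reads in line 50, at least 23.2-fold higher (adjusted p = 0.0096). BrWNK9 kinase genes Bra005401 and Bra015043 had 625 against 31, 25 and 55 and 552 against 30, 25 and 53. BrATCCT2 genes, of phosphatidylcholine synthesis, had 167 against 3, 5 and 3 for Bra041066 and 69 against 2, 3 and 2 for Bra040693. The call of Bra040693 was lost with the block (adjusted p = 0.052). Purine permease genes were called in both directions. BrPUP1 (Bra010890) had 621 against 23, 24 and 9 (4.93 ± 0.43, adjusted p = 0.0096). One copy of BrPUP14 (Bra025766), a cytokinin importer in Arabidopsis, had 9 against 166, 170 and 163 (-4.16 ± 0.45, adjusted p = 0.018). The other BrPUP14 copies were more abundant in line 4004, were higher there by value and were not called. Bra016495 had 548 against 262, 263 and 263, and Bra025764 had 390 against 158, 197 and 265.

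Single copies of BrAGO7, BrAGO9 and BrNRPD1 were higher in line 4004, named here after their values were seen. BrAGO7 (Bra011904), which makes trans-acting small RNAs in Arabidopsis, had 95 and no reads in line 50, at least 27.9-fold higher (adjusted p = 0.013). BrAGO9 (Bra020152), an Argonaute of reproductive tissue in Arabidopsis, had 125 against 4, 2 and 3 (5.24, adjusted p = 0.018). BrNRPD1 (Bra010344), the large subunit of RNA polymerase IV, had 146 against 13, 14 and 11 (3.43, adjusted p = 0.042). No line 50 library came near line 4004 for these 3 genes. Other copies were not called: BrAGO7 Bra003999 had 71 against 106, 114 and 67, BrNRPD1 Bra027611 had 274 against 311, 331 and 333, and BrAGO9 Bra032373 had 19 against 4, 1 and 9. Of 12 Argonaute genes tested 2 were called, beside 0.446% of all genes tested.

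Genes lower in line 4004 included several with no reads in it. Bra019400, an OB-fold nucleic acid-binding gene, had no reads in line 4004 and 1302, 1225 and 2455 in line 50 (-10.66 ± 1.11, adjusted p = 0.017), at least 568-fold lower. The acyltransferase gene Bra028166 had no reads in line 4004 against 402, 468 and 233, at least 126-fold lower (adjusted p = 0.016). The KH-domain RNA-binding gene Bra005702 had 3 against 607, 641 and 532 (-7.68 ± 0.5, adjusted p = 0.0034), a ratio of 310-fold lower with a counting interval from 85.6 to 2560. All 3 were also called lower at day 0. The kelch-repeat genes Bra029718 and Bra029716 had 28 against 770, 752 and 448 and 27 against 674, 656 and 347, BrPNG1 (Bra010028), a peptide N-glycanase, 47 against 905, 963 and 663, and the kinesin gene Bra001776, of a microtubule motor, 75 against 1302, 1330 and 790. The aspartyl protease gene Bra009007 had 199 against 1658, 1930 and 1357 (-3.12 ± 0.43, adjusted p = 0.044). Bra011765 and Bra011766, which have no description, had 26 against 1515, 1590 and 620 and 46 against 1715, 1800 and 1030.

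Some families were called in both directions, and their called shares stand beside 0.446% of all genes tested. F-box genes, which choose proteins for breakdown, had 2 higher and 2 lower among 226 (1.77%). Bra029126 and Bra029122 had no reads in line 4004, against 112, 113 and 95 and 86, 88 and 51 in line 50, at least 36.5-fold and 25.7-fold lower. Bra021590 had 30 against 2, 1 and 2 and Bra037303 had 17 against none, and the block called neither of these 2 (adjusted p = 0.056 and 0.075). NBS-LRR disease resistance genes had 2 higher and 1 lower among 171 (1.75%). At least 2-fold above every line 50 library lay 14 and below 14 (8.19% each, beside 3.17% and 3.53% of all genes). Bra030778 had 113 against 2, 3 and 2, Bra018448 105 against 4, 5 and 3, and BrRPS5 (Bra019752) 5 against 97, 106 and 60. HXXXD acyltransferases had 2 higher and 1 lower among 67 (4.48%). Protease inhibitors had 1 of each among 35 (5.71%). The Kunitz gene Bra041132 had 53 against 4, 2 and 3, and BrATKTI1 (Bra016007) 2 against 139, 94 and 66. Of 10 BrATKTI1 genes tested only Bra016007 was called, and their median was -1.45. Values of the others went both ways, and the most abundant, Bra016002, had 895 against 179, 117 and 301.

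Genes without an Arabidopsis locus held 36 higher and 4 lower calls among 640 tested, 6.25% beside 0.446% over all genes. Ribosomal proteins stood at the other end, with no call among 548 (8 at an unadjusted p under 0.05, 3 by DESeq2), a median of -0.01 and 3 genes at least 2-fold above and 3 below (0.547% each). Over all genes tested, 3.17% lay at least 2-fold above and 3.53% below. Cytochrome P450 genes had no call among 240 (26 at an unadjusted p under 0.05, 4 by DESeq2), with 21 (8.75%) at least 2-fold below every line 50 library. B3-domain genes had no call among 86 (16 at an unadjusted p under 0.05, 0 by DESeq2) and 16 (18.6%) at least 2-fold above. However, 9 of these 16 had values within 3 normalized reads of Bra012545 (42 against 16, 12 and 18) in all 8 libraries, so they may share reads and are not separate measurements.

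Peroxidase, GDSL lipase and lipid-transfer genes, families picked after their values were seen, held a larger share of low values in line 4004 than all genes tested. Among 93 peroxidase genes 17 (18.3%) lay at least 2-fold below every line 50 library and 1 above, among 73 GDSL lipases 13 (17.8%) below and 3 above, and among 81 lipid-transfer and 2S albumin genes 14 (17.3%) below and 1 above, beside 3.53% and 3.17% of all genes. Their medians were -0.36, -0.59 and -0.62. At 10 or less in every day 0 library were 14 of the 17 low peroxidase genes, 4 of the 13 low GDSL lipases and 5 of the 14 low lipid-transfer genes. The same held for 22.6% of all peroxidase genes tested, 8.22% of GDSL lipases and 14.8% of lipid-transfer genes, beside 3.84% of all genes tested. Of the 1101 low genes of any kind it held for 236 (21.4%). Low genes that were quiet at day 0 entered the test through their level in line 50. These shares therefore describe the genes and are no evidence about the families. The peroxidase gene Bra020370, one of the 3 low ones above 10 in a day 0 library, had 20 against 273, 220 and 332. It was called with the block (adjusted p = 0.014) but not without it (0.073).

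Some genes were quiet in both lines before the cold. At or under 10 in every day 0 library and at 100 or more at day 35, in line 4004 or as the mean of line 50, were 41 genes, of which 16 (39.0%) lay at least 2-fold below every line 50 library, 2 (4.88%) above and 23 neither. Genes low in line 4004 entered this count through their level in line 50, and high ones through line 4004, so the count describes the 41 genes and cannot be set against the 3.53% and 3.17% of all genes. The rule and its cutoffs were chosen after the values were seen. With a ceiling of 5 the counts were 12 below and 0 above of 21 genes, and with a level of 50 they were 26 and 8 of 82. Without replicate 1, 2 or 3 they were 15 and 6 of 37, 21 and 2 of 44, and 25 and 3 of 47. The 3 genes of the 41 that were called, all lower in line 4004, were BrCDEF1, a lipid-transfer gene and a pollen coat gene.

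BrCDEF1 (Bra010306), a GDSL lipase that breaks down cutin in Arabidopsis, had 3 normalized reads in line 4004 against 470, 307 and 748 (-7.48 ± 0.94, adjusted p = 0.031), and 1 against 1, 2 and 2 at day 0. With so few reads in line 4004, its ratio of 238-fold lower has a counting interval from 65.8 to 1970. The lipid-transfer gene Bra013621 had 43 against 1580, 1223 and 2878 (-5.54 ± 0.79, adjusted p = 0.046), and no reads in any library at day 0. Bra040525, described as an SLR1-binding pollen coat protein gene, had 28 against 740, 526 and 432 (-4.38 ± 0.52, adjusted p = 0.025), and at day 0 it had 1 read in replicate 2 of line 50 and none in the other libraries. For each of these 3 genes the line 50 libraries were at least 2-fold apart from line 4004 with no overlap. The interaction test did not pass (unadjusted p of 0.021 for BrCDEF1 and 0.041 for Bra013621, both 1 after adjustment, and 0.07 for Bra040525). Other copies of the Bra040525 locus were more abundant and not called. Bra039414 had 2117 against 1629, 2054 and 5698, and Bra040524 had 1316 against 1309, 1622 and 4041. A second BrCDEF1 gene, Bra010304, had 2 against 214, 132 and 306 and was called with the block (adjusted p = 0.016) but not without it (0.061). Bra013620, a lipid-transfer gene, had 21 against 855, 851 and 1950, with 0.0044 and 0.052, and the peroxidase gene Bra028761 had 11 against 343, 157 and 228, with 0.031 and 0.11.

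At most loci with a call, only some of the copies were called. Only 0.446% of all genes tested were called, so these counts do not show whether copies differed more or less than other genes. Of 8641 loci with at least 2 tested genes, 56 had any call, and in 50 of these some copies were called and the rest not. All copies were higher for 5 loci and lower for 1, and copies were called in both directions for 2. One of the 2 is the locus AT1G14800 of OB-fold proteins, with 40 genes tested, where 5 were higher and 1 lower. Bra022234 had 447 and no reads in line 50 (at least 131-fold higher, adjusted p = 0.0016), Bra007143 218 against 5, 6 and 2, and Bra036736 207 against 15, 15 and 8, while Bra019400 was absent from line 4004 as given above. The other is AT3G22142, with the lipid-transfer genes Bra034350, at 27 with no reads in line 50, and Bra013621. The call of Bra034350 was lost with the block (adjusted p = 0.057).

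Called genes can share reads with a near-identical copy. Bra018349 and Bra007958 had identical raw counts in all 8 libraries, as had Bra032745 and Bra026121, so 4 of the 139 calls stand for 2 measurements. The calls of Bra018349 and Bra007958 were lost with the block (adjusted p = 0.083 for both). Bra000597 and Bra005173 differed little, with 1692 and 1687 against 7, 4 and 8 for both. The sources used here do not say how reads matching several genes were counted, so the values of such copies are uncertain.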

How the data were processed

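Reads were trimmed by the authors (SolexaQA) and aligned with Bowtie2, default settings, to a Brassica rapa gene set. The authors deposited raw counts for 38008 genes, made with a counter not given in the sources used here. Every library has 1 as its lowest count, which 676 genes hold throughout, so an added 1 was assumed. The normalized read counts, a score of raw count over a DESeq factor, were computed and rounded by the authors over these and further libraries, and describe levels here. The deposited log2 ratios of group means were not used. Gene names and Arabidopsis loci are those deposited (36242 genes with a locus, 15196 with a symbol, 32538 with a description).

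Counts were tested as deposited with edgeR 4.0.16 in R 4.3.3 (TMM scaling, filterByExpr by group, quasi-likelihood F test) in 1 fit of 8 libraries with 1 coefficient per group, checked on simulated data. The 4 residual degrees of freedom all come from line 50, and the common biological coefficient of variation was 0.398. DESeq2 1.42.0, other scalings and filters, left-out libraries and the replicate number as a block were alternatives. Line 50 libraries with the same number deviated together between the days (r of 0.446, 0.615 and 0.695 for numbers 1, 2 and 3). The numbers were therefore treated as pairing them in the block fit only, and the main fit took the 8 libraries as independent. The check sets replicate 3 apart (r of -0.656 to -0.505 with the others) but not replicates 1 and 2, whose crossed values were 0.473 and 0.563, and the day 35 groups share 1 number. Adjusted p-values are Benjamini-Hochberg values over all genes tested, and p-values measure the spread between line 50 samples. Poisson and ratio intervals (95%) and folds against a floor of 3 counts per library cover counting error only.

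The 33 lists, 27 of pathways and 6 of markers, came from 578 Arabidopsis loci, of which 532 matched a gene, and 64 families came from words in the deposited descriptions, 4 of whose patterns were narrowed after the data were seen. Members and lists were chosen with earlier results of these data known. No set was tested. Genes named by rule were called genes with a mean of at least 500, called genes of each list and family or else up to 2 of smallest p, copies called in both directions and the study's own flowering and reductase genes. Every other gene named was chosen after its values were seen.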

Additional observations from a re-analysis of the deposited data

Results flagged for a closer look

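Named genes on opposite sides of every line 50 library at the 2 days are listed here, and for all 8 of them the interaction test did not pass after adjustment.

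Bra006848, a ribonuclease H-like gene, had 1 normalized read against 4, 3 and 3 at day 0 and 39 against 1, 2 and 2 at day 35, with an interaction log2 value of 6.14 (edgeR adjusted p = 0.95). The BrSPL5 copy Bra027265 had 16 against 18, 30 and 32 and then 34 against 6, 6 and 5 (3.3, adjusted p = 1.0). The copy Bra021094 had 10 against 13, 23 and 22 and then 25 against 5, 4 and 4 (3.23, adjusted p = 1.0). Both SPL5 copies were thus lowest in line 4004 before the cold and highest in it after.

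BrHSFA2 Bra000557, a heat stress factor, had 6 against 13, 13 and 8 and then 14 against 6, 3 and 5 (2.58, adjusted p = 1.0). The Polycomb gene BrFIE Bra035751 had 24 against 36, 32 and 27 and then 42 against 25, 23 and 16 (1.29, adjusted p = 1.0). One BrMYB28 copy, Bra035929, had 642 against 1128, 1466 and 754 and then 335 against 281, 318 and 229 (1.04, adjusted p = 1.0), levels that narrow to a small gap at day 35. In the other direction, BrSDI1 Bra020675 had 186 against 144, 103 and 128 and then 66 against 171, 166 and 196 (-2.03, adjusted p = 1.0). BrFLC2 Bra028599 had 1976 against 1081, 1018 and 1572 and then 108 against 109, 123 and 136 (-0.89, adjusted p = 1.0), so at day 35 it lay 1 normalized read under the nearest line 50 library.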

How the results depend on the processing

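With 1 library of line 4004, every p rests on the spread of line 50, and low counts limit the smallest differences. Of the 139 genes called at day 35, none changed sign under any of the 16 alternatives. Each lay at least 2-fold beyond every line 50 library, and the same line 4004 library was in every fit. Leaving out line 50 libraries could therefore hardly turn a sign, and the kept signs are no evidence of their own. The count was 297 with the replicate block, 433 with DESeq2, 47 with 1 subtracted from each count, 13 at a mean of at least 500 and 61 at a mean of at least 50. It was 0 with the day 35 libraries alone (1525 genes at an unadjusted p under 0.05) and 0 against line 50 replicate 3 alone (2444), fits with 2 residual degrees of freedom. Leaving out line 50 replicates gave 0 to 139, with 0 without replicate 1 at both days (936 at an unadjusted p under 0.05), 8 without replicate 2 at both days and 10 without either of them at day 35. Other scalings and no filter gave 132 to 183. At day 0 the 466 calls became 2363 with the block, 1566 with DESeq2 and 277 with 1 subtracted, and 2 to 997 with line 50 replicates left out. The interaction had 0 calls in every edgeR fit and 69 with DESeq2 (10 positive, 59 negative). Among genes not called, the sign turned for BrIRX1 Bra012578 against replicate 3 alone (0.35; -2.24 in the full fit), BrLSU2 Bra020466 without replicate 3 (0.12; -0.87 in the full fit, and -1.23 to 0.12 over the left-out replicates), BrNRT1.1 Bra026991 with the block (-0.14; 0.15) and BrUBQ10 Bra029570 with the block (-0.2) and against replicate 3 alone (-0.24; 0.67). The causes were not tested. The block changed no call of a named gene beyond those given beside them.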
